A study of Mus musculus with 60 samples.

Results

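The 10 genes described here encode transcription factors of naive pluripotency: Nanog, Esrrb, Tfcp2l1, Klf2, Klf4, Klf5, Zfp42, Prdm14, Tbx3 and Nr5a2. They were taken by name from a list of known factors, not by their measured values, although earlier results of these data were known when the list was made, and all 10 were found among the 56633 features (genes and repeat subfamilies) counted in each library. RNA was sequenced from mouse embryonic stem cells (mESCs) of the E14JU line grown in serum and LIF. All cells carried POLE4 fused to a degron tag (POLE4-dTAG), and one of the clones also carried the MCM2-2A mutation. POLE4 is a subunit of the leading strand DNA polymerase, MCM2 is a subunit of the replicative helicase, and both handle parental histones at the replication fork. The study asked how cells that lose either or both routes of histone transmission leave the pluripotent state.

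Ctrl and Ctrl MCM2-2A cells were given DMSO, and dPOLE4 and dPOLE4 MCM2-2A cells were given 1 µM dTAG, which degrades the tagged protein. After 24 h of either treatment, cells were collected (T0) or moved to medium with retinoic acid (RA) and no LIF for 12 h (T12), 24 h (T24) or 60 h (T60), so RA and the loss of LIF cannot be told apart. These hours follow the sample titles, the time labels and the methods, while the treatment text of the labels lists 24, 48 and 60 h. The titles also gave DMSO or dTAG, since a treatment label reads untreated for every T0 and 96 h library, and whether dTAG was kept on during RA is not stated in the sources used here. A separate experiment collected the same 4 kinds of cells after 96 h of treatment without RA. Each of the 20 groups had 3 libraries. The methods call them biological replicates, and neither they nor the labels say how separate the cultures were, so p-values measure the spread between libraries of the same clone. Ctrl and dPOLE4 cells were 1 POLE4-dTAG clone under either treatment, and Ctrl MCM2-2A and dPOLE4 MCM2-2A cells were another clone, made in MCM2-2A cells. The mutation and the clone cannot be told apart, and the MCM2-2A groups are no independent repeats of each other. dTAG acts on protein and the mutation changes codons, so gene counts give no check of either label.

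Naive pluripotency is the state of the preimplantation epiblast. In mESCs it is held by a network in which LIF signals through STAT3 to Klf4 and Tfcp2l1, while Nanog, Esrrb, Klf2, Klf5, Tbx3 and Nr5a2 support each other and the general factors Pou5f1 and Sox2. When LIF is withdrawn or differentiation is induced, this network is dismantled before the general factors are lost, and RA is a common way to drive that exit. Bulk RNA was measured here, so a smaller share of cells that express a gene and less RNA per cell cannot be told apart.

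The 48 libraries of the RA experiment had total counts of 10461077 to 46609151, and the 12 libraries of the 96 h experiment had 7126100 to 23598266. Levels are given as CPM, the count of a gene scaled to a common library size after TMM normalization. A gene was called up- or down-regulated when edgeR's quasi-likelihood test gave an adjusted p below 0.01 and a log2 fold change over 0.58 in size. The share of all tested features called in a comparison is given beside the first count of the 10 genes. At T12, 8, 8, 7 and 7 of 8 retinoic acid response genes were up-regulated in Ctrl, dPOLE4, Ctrl MCM2-2A and dPOLE4 MCM2-2A cells, where 7.24%, 7.18%, 5.2% and 4.3% of features were. The lowest count of any of the 10 genes in any library was 12, for Prdm14, so its values at T60 carry the most counting error. The other 9 genes had at least 52 counts in every library.

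In Ctrl cells at T0 the 10 genes covered a wide range of levels per length. Zfp42, which encodes the zinc finger protein REX1, stood highest with 255 CPM per kilobase of exons, and the homeodomain factor Nanog followed with 205. Klf2 (96.8), Esrrb (73.5), Klf5 (55.5), Tfcp2l1 (41.9), Klf4 (39.9) and Tbx3 (36.9 CPM per kilobase) came between. Nr5a2, an orphan nuclear receptor, had 14.3 CPM per kilobase, and Prdm14, a PR domain factor known for its part in DNA hypomethylation and germ cells, had 6.57. Per length, the Ctrl T0 libraries of Klf4 overlapped with those of Tfcp2l1 and of Tbx3, and those of Klf2, Esrrb and Klf5 did not overlap with each other.

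Of the 10 genes, 9 were lost in RA in all 4 kinds of cells, and Tbx3 was the exception. At T60 against T0, 9 of 10 were down-regulated and none was up-regulated in Ctrl, dPOLE4, Ctrl MCM2-2A and dPOLE4 MCM2-2A cells. Of all tested features, 23.7%, 22.5%, 21.2% and 19.3% were down-regulated in these comparisons. The median log2 fold change of the 10 genes was -3.58 in Ctrl, -3.52 in dPOLE4, -2.53 in Ctrl MCM2-2A and -1.93 in dPOLE4 MCM2-2A cells. The median of all tested features lay within 0.032 of zero in the 4 comparisons.

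**Figure D1:**
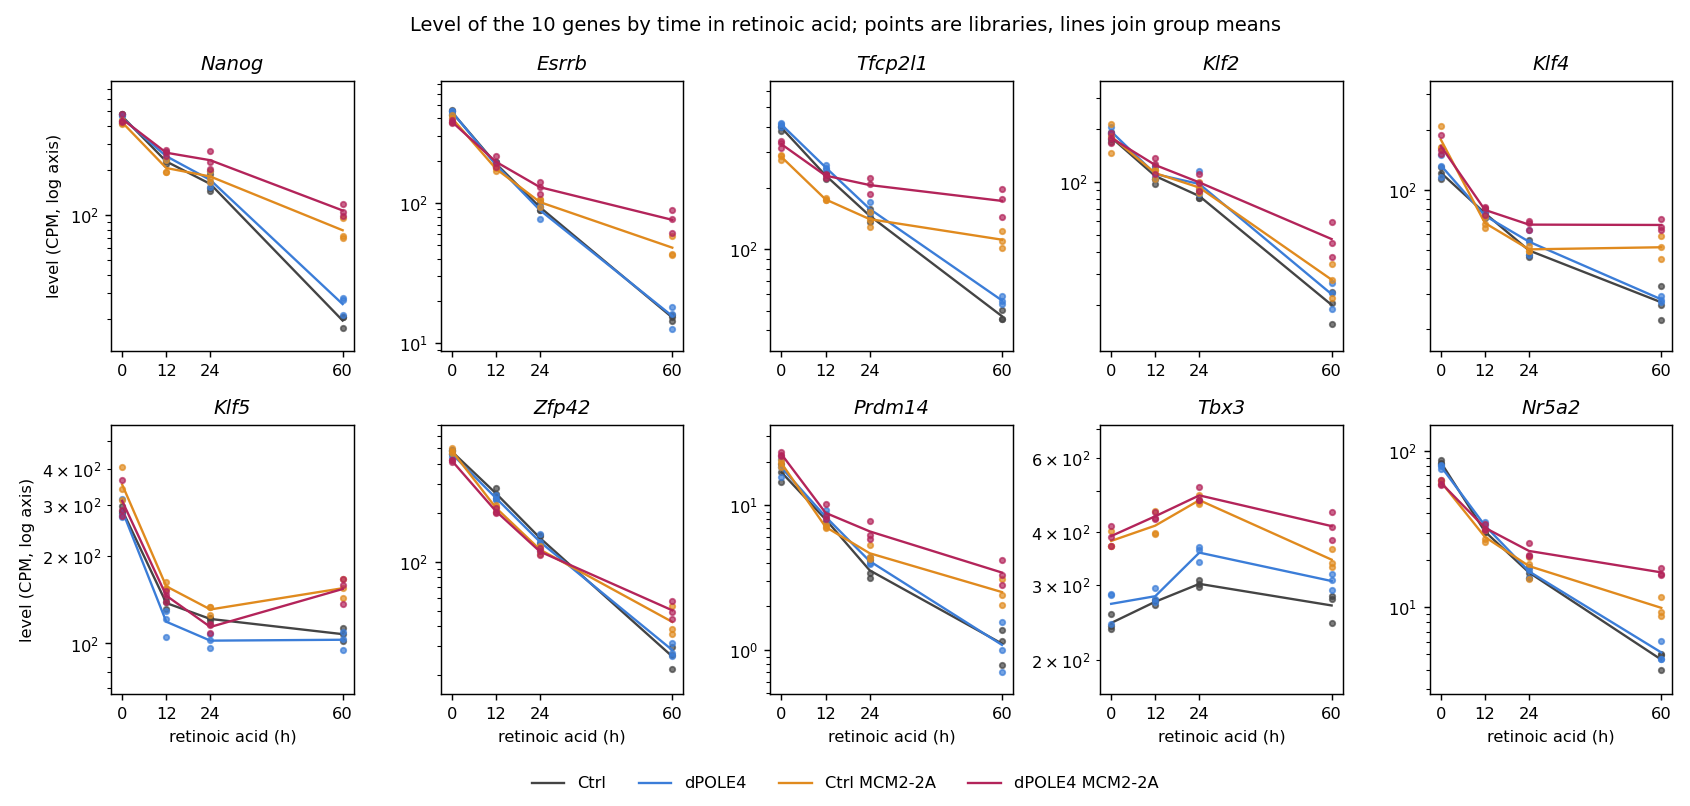
Level of each of the 10 genes (CPM, log axis) against hours in retinoic acid, with 1 point per library and lines through the means of 3 libraries in Ctrl (black), dPOLE4 (blue), Ctrl MCM2-2A (orange) and dPOLE4 MCM2-2A (red) cells. The black and blue lines run close together, the orange and red lines end higher at 60 h for Nanog, Esrrb, Tfcp2l1 and Nr5a2, and Tbx3 does not fall below 90% of its T0 level in any of them at 60 h.

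Nanog sustains self-renewal and was the gene with the second largest log2 fold change in Ctrl cells. It stood at 427, 480 and 475 CPM in the 3 Ctrl libraries at T0, at 230, 221 and 238 at T12, at 188, 153 and 145 at T24 and at 20.8, 20.6 and 17.6 at T60. No library of one time overlapped with those of the next. The loss was uneven between the first 12 h and the next 12 h, and the last step spanned a longer interval than either. It was -1.0 ± 0.059 (log2 fold change ± SE) over the first 12 h, -0.50 ± 0.087 over the next 12 h, under the fold threshold with all libraries and past it without Ctrl T24 replicate 1 (-0.63), and -3.02 ± 0.11 from T24 to T60.

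Esrrb encodes an orphan nuclear receptor that can stand in for Nanog in self-renewal, and it fell furthest. Its Ctrl libraries held 421, 462 and 450 CPM at T0 and 14.4, 15.4 and 16 CPM at T60, a log2 fold change of -4.89 ± 0.077 (edgeR, adjusted p = 1.15e-15). Unlike Nanog it passed the test at each of the 3 steps, with -1.22, -1.03 and -2.60. Nr5a2, the other orphan nuclear receptor, lost most of its CPM in the first 12 h, from 83.5, 87.3 and 83.0 CPM to 30.1, 30.3 and 31.1 CPM. That was -1.47 ± 0.058, the largest change of the 10 genes at T12, and 4.63 CPM ± 0.582 (SD, n = 3) was left at T60.

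Zfp42, a standard marker of the naive state, fell from 482, 493 and 463 CPM at T0 to 29.7, 21.7 and 26.7 CPM at T60 in Ctrl cells (log2 fold change -4.21). Tfcp2l1, a grainyhead-like factor downstream of LIF and STAT3, fell from 382, 404 and 400 CPM to 45.5, 45.2 and 50.1 CPM (-3.10). Prdm14 fell from 14.5, 16.9 and 19.1 CPM to 0.791, 1.37 and 1.15 CPM (-4.00). In all 3 genes the T0 and T60 libraries lay far apart, and each passed the test at every step in Ctrl cells.

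The 3 Kruppel-like factors, which bind overlapping sites and can replace one another in part, were lost on different schedules. In Ctrl cells Klf2 went from 174, 193 and 169 CPM at T0 to 23.8, 15.6 and 20.5 CPM at T60. Its largest log2 step was the last (-2.02 ± 0.1 from T24 to T60), beside -0.73 from T0 to T12. That last step also spanned the most hours, and changes per hour were not compared. Klf4 went from 114, 122 and 130 CPM to 33.2, 22.3 and 26.6 CPM in steps of -0.67, -0.62 and -0.84. Its T24 against T12 step did not pass the fold threshold without Ctrl T24 replicate 2 (-0.58) or replicate 3 (-0.56). Klf5 went from 297, 286 and 283 CPM at T0 to 143, 139 and 132 CPM at T12 and then levelled off, with 113, 102 and 108 CPM at T60. Klf5 was thus the least reduced of the 9 genes, with 37.3% ± 1.95 of its T0 level left at T60 (SD, n = 3).

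Tbx3, a T-box factor that can sustain self-renewal without LIF and also acts in extraembryonic endoderm, was not lost. Its Ctrl libraries held 237, 240 and 256 CPM at T0, 308, 297 and 302 at T24 and 279, 245 and 283 at T60. All T24 libraries lay above all T0 libraries of the same cells, with means of 124%, 132%, 125% and 125% of T0 in Ctrl, dPOLE4, Ctrl MCM2-2A and dPOLE4 MCM2-2A cells, and T24 was not tested against T0. The T0 and T60 libraries of Ctrl cells overlapped, and Tbx3 was not called over any step tested or from T0 to T60 in any of the 4. Changes under the fold threshold did occur, as from T24 to T60 in Ctrl MCM2-2A cells (-0.45, edgeR, adjusted p = 8.3e-07). All 6 extraembryonic endoderm markers were up-regulated at T60 in Ctrl cells, where 26.9% of features were, and their summed level was 13.4 to 24.4 CPM at T0 and 293 to 365 CPM at T60. The part of these markers in the Tbx3 level was not tested.

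The genes were also followed step by step, and the counts were not compared by a test. From T0 to T12, 9 of 10 genes fell in Ctrl, dPOLE4 and Ctrl MCM2-2A cells and 7 in dPOLE4 MCM2-2A cells, where 4.04%, 4.52%, 3.45% and 3.49% of features fell. In dPOLE4 MCM2-2A cells Tfcp2l1 and Klf2, both at -0.50, missed the fold threshold, and in Ctrl MCM2-2A cells Klf2 missed it without T0 replicate 1 (-0.53). From T12 to T24, 6, 5, 3 and 2 genes fell in Ctrl, dPOLE4, Ctrl MCM2-2A and dPOLE4 MCM2-2A cells, against 3.22%, 2.92%, 3.31% and 3.15% of features. Of these, Nr5a2 in Ctrl MCM2-2A cells and Esrrb in dPOLE4 MCM2-2A cells lay close to the fold threshold, with -0.61 and -0.60. Nr5a2 missed it without Ctrl MCM2-2A T12 replicate 2 (-0.53) or T24 replicate 3 (-0.50). Esrrb missed it without dPOLE4 MCM2-2A T12 replicate 2 or T24 replicate 3 (-0.54 in both), which left 1 gene called. From T24 to T60, 8, 8, 6 and 5 genes fell, against 15.9%, 14.1%, 13.4% and 9.93% of features. By the adjusted p alone, in either direction, 9 genes passed from T0 to T12 in each of the 4, and 8, 8, 7 and 4 passed from T12 to T24. The same numbers from T24 to T60 were 8, 9, 9 and 7. These included rises of Klf5 under the fold threshold in Ctrl MCM2-2A (0.25) and dPOLE4 MCM2-2A cells (0.44). The shares of features above are those with the fold threshold, and shares by the adjusted p alone are not given here.

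**Figure D2:**
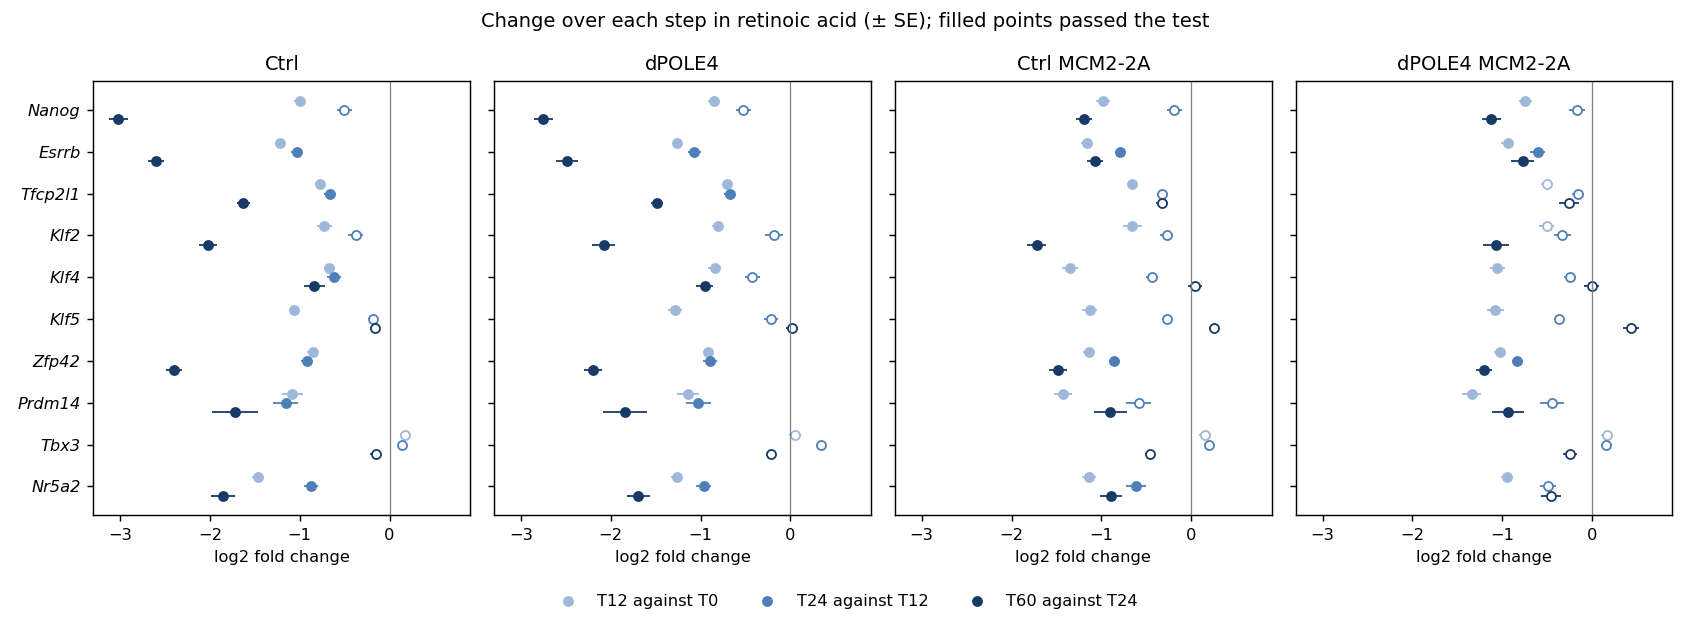
Log2 fold change (± SE) of each gene over the steps T0 to T12 (light), T12 to T24 (middle) and T24 to T60 (dark) in the 4 kinds of cells; filled points passed the test. In Ctrl and dPOLE4 cells the dark points of Nanog, Esrrb, Klf2 and Zfp42 lie at -2.02 or lower, while in both MCM2-2A groups they lie at -1.72 or higher.

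The time at which a gene passed below 50% of its T0 level was read from the group means by interpolation on the log scale. It has no error of its own and rests on the hours in the sample titles. In Ctrl cells it ran from 8.15 h for Nr5a2 and 9.82 h for Esrrb to 18.3 h for Klf4 and 20.6 h for Klf2. In dPOLE4 cells Klf2 was again last, at 24.2 h. Nanog passed 50% at 11.9 h in Ctrl, 15.4 h in dPOLE4, 11.8 h in Ctrl MCM2-2A and 26.6 h in dPOLE4 MCM2-2A cells. Tfcp2l1 did not pass 50% by T60 in dPOLE4 MCM2-2A cells. Klf4, Klf5, Zfp42 and Prdm14 passed it earlier in both MCM2-2A groups than in Ctrl cells, as for Klf4 with 8.65 h and 11.3 h against 18.3 h and Zfp42 with 10.3 h and 11.6 h against 13.9 h. Esrrb, Klf2 and Nr5a2 passed it later in both, as for Klf2 with 24.7 h and 29.4 h against 20.6 h. In dPOLE4 cells Klf4 (16.5 h), Klf5 (9.4 h), Zfp42 (13.2 h) and Prdm14 (10.7 h) also passed it earlier than in Ctrl cells. So did Esrrb (9.58 h), while Klf2 and Nr5a2 (9.53 h) passed it later in dPOLE4 cells. These times depend on the T0 level of the same cells. At T0 Klf4 held 178 CPM ± 26.2 in Ctrl MCM2-2A and 122 CPM ± 7.87 in Ctrl cells (SD, n = 3). At T12 its means were 68.2 and 76.4 CPM. Nr5a2 started lower in Ctrl MCM2-2A cells, at 63.5 against 84.6 CPM. The median share of the T0 level left over the 10 genes was 52.5% in Ctrl and 44.5% in Ctrl MCM2-2A cells at T12, and 36.1% and 33.0% at T24.

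The share of the T0 level left at T60 was on average higher in Ctrl MCM2-2A and in dPOLE4 MCM2-2A cells, which are the same clone, than in Ctrl cells for the 9 genes that fell. Its median over the 10 genes was 8.87% in Ctrl, 9.18% in dPOLE4, 17.3% in Ctrl MCM2-2A and 26.7% in dPOLE4 MCM2-2A cells. Nanog retained 4.27% ± 0.398 in Ctrl, 5.66% ± 0.750 in dPOLE4, 18.9% ± 3.30 in Ctrl MCM2-2A and 24.4% ± 2.27 in dPOLE4 MCM2-2A cells (SD over T60 libraries, n = 3). Tfcp2l1 retained 11.9% ± 0.695, 13.7% ± 0.620, 39.3% ± 3.69 and 52.7% ± 8.23 in the same order.

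**Figure D3:**
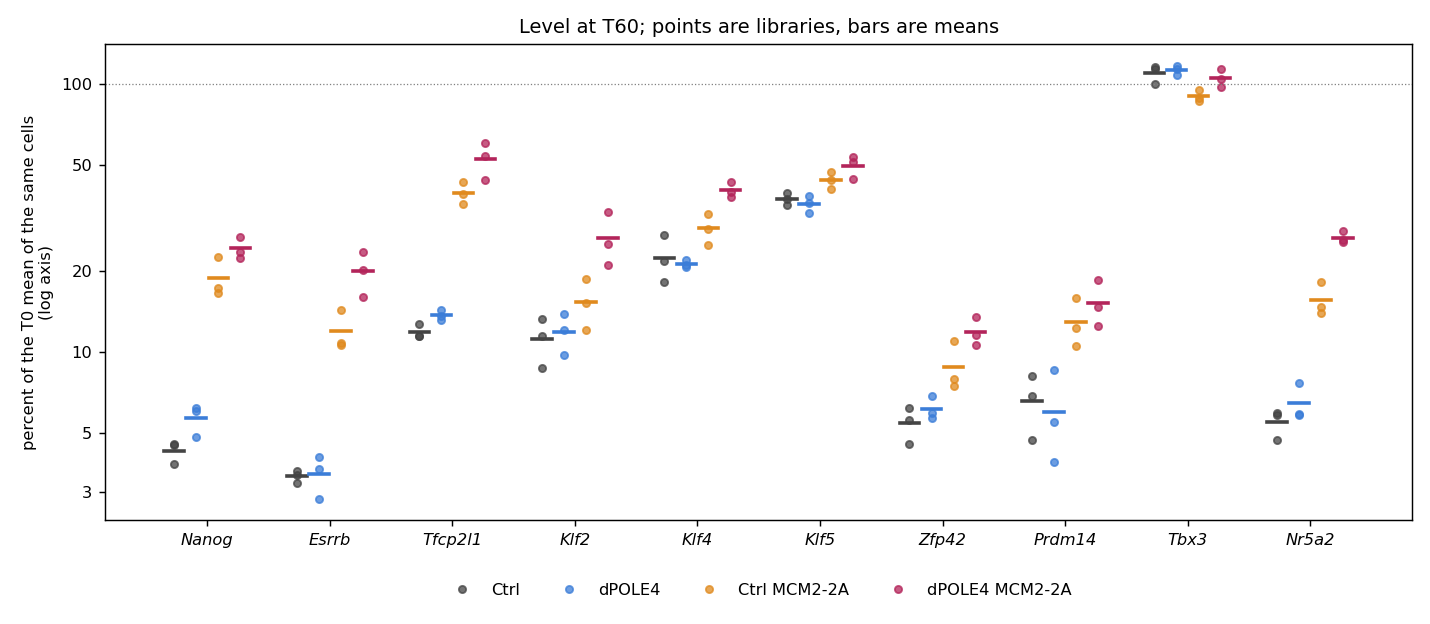
Level at T60 as a percentage of the T0 mean of the same cells (log axis), with 1 point per library and a bar at the mean of 3 libraries, in Ctrl, dPOLE4, Ctrl MCM2-2A and dPOLE4 MCM2-2A cells. For Nanog, Esrrb, Tfcp2l1 and Nr5a2 the libraries of both MCM2-2A groups lie above those of the other groups, and Tbx3 lies near 100% in all 4.

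The MCM2-2A clone was compared with the clone without the mutation in DMSO at each time. At T60, 7 of 10 genes were up-regulated in Ctrl MCM2-2A against Ctrl cells, where 8.97% of features were, with a median log2 fold change of 1.02 over the 10 genes and 0.011 over all features. Nanog stood at 95.2, 72.9 and 69.9 CPM in Ctrl MCM2-2A libraries and at 20.8, 20.6 and 17.6 CPM in Ctrl libraries (log2 fold change 2.02 ± 0.12, edgeR, adjusted p = 1.06e-08). Esrrb stood at 57.7, 43.4 and 42.9 CPM against 14.4, 15.4 and 16 CPM (1.67 ± 0.12). Tfcp2l1 stood at 122, 110 and 102 CPM against 45.5, 45.2 and 50.1 CPM (1.26 ± 0.079). In each of these genes the lowest MCM2-2A library was over the highest Ctrl library.

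Prdm14 (1.24 ± 0.28), Nr5a2 (1.13 ± 0.16), Klf4 (0.91 ± 0.12) and Zfp42 (0.71 ± 0.14) were also up-regulated at T60. The call of Prdm14 was lost without Ctrl T60 replicate 1 (0.99, adjusted p = 0.0236, edgeR) or replicate 3, and that of Zfp42 without Ctrl MCM2-2A T60 replicate 1 (0.53). Klf5 (0.54 ± 0.066) and Tbx3 (0.37 ± 0.067) missed the fold threshold, and Klf2 (0.47 ± 0.15) overlapped between the groups. Klf5 passed without Ctrl MCM2-2A T60 replicate 2 (0.59), and Klf2 without Ctrl T60 replicate 1 or Ctrl MCM2-2A T60 replicate 3 (0.63 in both).

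Before RA none of these 7 genes was called. At T0, 1 gene was up-regulated in Ctrl MCM2-2A cells, against 9.83% of features, and the median log2 fold change of the 10 genes was -0.0024. That gene was Tbx3, with 403, 371 and 371 CPM against 237, 240 and 256 CPM (0.63 ± 0.051). Below the fold threshold but with an adjusted p under 0.01, Klf4 stood higher (0.53 ± 0.081) and Tfcp2l1 (-0.49 ± 0.053) and Nr5a2 (-0.43 ± 0.052) stood lower. Klf4 passed without Ctrl MCM2-2A T0 replicate 2 (0.60) or 3 (0.62). Tbx3 was also the 1 gene up-regulated at T12 (0.60 ± 0.063) and at T24 (0.68 ± 0.045), against 6.93% and 9.71% of features. Without Ctrl MCM2-2A T12 replicate 3 the T12 difference was 0.55 and no gene was called at T12.

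In the 96 h experiment, without RA, none of the 10 genes was called in Ctrl MCM2-2A against Ctrl cells, where 15.7% of features were called in either direction. There edgeR gave an unadjusted p under 0.05 for 9 genes, beside 7680 of 17623 features, and DESeq2 called 0. Nr5a2 (-0.53 ± 0.086), Esrrb (-0.42 ± 0.087), Klf5 (0.43 ± 0.077) and Tbx3 (0.50 ± 0.13) had an adjusted p under 0.01. Tbx3 passed without Ctrl 96 h replicate 1 (0.68), and Nr5a2 without Ctrl 96 h replicate 2 or Ctrl MCM2-2A 96 h replicate 3 (-0.59 in both). The 4 differences had the signs seen at T0, in separate libraries of the same clones.

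The difference in loss itself was tested as the 60 h change in Ctrl MCM2-2A minus that in Ctrl cells. It was positive and called for 5 genes, against 4.70% of features. The differences were 2.14 ± 0.14 for Nanog, 1.80 ± 0.14 for Esrrb, 1.73 ± 0.096 for Tfcp2l1, 1.54 ± 0.15 for Nr5a2 and 0.68 ± 0.16 for Zfp42 on the log2 scale. The call of Zfp42 was lost without Ctrl T0 replicate 2 (0.67), Ctrl MCM2-2A T0 replicate 2 (0.65) or Ctrl MCM2-2A T60 replicate 1 (0.53). Prdm14 differed by 1.03 ± 0.28 and was not called (edgeR, adjusted p = 0.0126). DESeq2 called it, and so did edgeR without Ctrl T0 replicate 1 (1.13), Ctrl T60 replicate 2 (1.26) or Ctrl MCM2-2A T60 replicate 3 (1.18). Klf4 stood higher in Ctrl MCM2-2A cells at both T0 and T60, and its 60 h change was not called as different.

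The promoters shown are those of the 5 genes whose difference in loss was called, and no link between sequence and loss was tested. Each is the 250 bases before the first transcribed base in the RefSeq table for GRCm38.p6, read on the strand of the gene, and 7 of the 10 genes had an entry. Where the table held more than 1 start, the one at the annotated gene start was used. Nanog lies on chr6:122707239-122707488 (+), Esrrb on chr12:86360867-86361116 (+), Tfcp2l1 on chr1:118627695-118627944 (+), Nr5a2 on chr1:136960449-136960698 (-) and Zfp42 on chr8:43307010-43307259 (-). Capitals mark matches, on either strand, to 5 motifs. These were the octamer core ATGCAAA of POU factors, ACAATG of SOX factors, AAGGTCA of estrogen-related receptors and NR5A factors, TTCNNNGAA of STAT factors and GGGNGTGG of Kruppel-like factors.
Nanog: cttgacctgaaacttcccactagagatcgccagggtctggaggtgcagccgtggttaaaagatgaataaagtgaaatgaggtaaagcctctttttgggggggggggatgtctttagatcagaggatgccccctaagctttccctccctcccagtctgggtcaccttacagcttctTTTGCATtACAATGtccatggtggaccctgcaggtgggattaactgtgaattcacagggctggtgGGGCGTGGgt
Esrrb: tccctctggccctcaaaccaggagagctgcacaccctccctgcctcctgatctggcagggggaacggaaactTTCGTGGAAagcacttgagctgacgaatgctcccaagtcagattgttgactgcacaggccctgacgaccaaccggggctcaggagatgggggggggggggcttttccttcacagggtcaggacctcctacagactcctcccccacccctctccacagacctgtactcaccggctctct
Tfcp2l1: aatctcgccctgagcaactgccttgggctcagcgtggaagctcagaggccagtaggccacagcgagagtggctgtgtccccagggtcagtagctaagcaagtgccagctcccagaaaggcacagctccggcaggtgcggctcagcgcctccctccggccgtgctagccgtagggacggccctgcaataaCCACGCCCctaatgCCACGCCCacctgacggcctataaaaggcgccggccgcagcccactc
Nr5a2: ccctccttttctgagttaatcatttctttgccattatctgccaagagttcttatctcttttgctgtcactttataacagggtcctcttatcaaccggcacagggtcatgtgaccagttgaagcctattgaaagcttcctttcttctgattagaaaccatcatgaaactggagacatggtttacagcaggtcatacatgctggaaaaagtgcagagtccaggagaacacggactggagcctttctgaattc
Zfp42: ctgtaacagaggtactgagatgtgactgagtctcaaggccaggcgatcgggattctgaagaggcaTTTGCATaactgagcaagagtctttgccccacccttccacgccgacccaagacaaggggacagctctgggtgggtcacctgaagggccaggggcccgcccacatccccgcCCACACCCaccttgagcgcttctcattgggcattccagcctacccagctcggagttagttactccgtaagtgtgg

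The octamer core and the SOX motif stood beside each other in the Nanog promoter, 75 to 69 and 67 to 62 bases before the start, and the octamer core also occurred in the Zfp42 promoter. Of all 32851 promoter windows of that length, 4.12% held the octamer core and 10.7% the SOX motif. Kruppel-like matches occurred once in Nanog and Zfp42 and at 2 positions in Tfcp2l1, and 15.9% of windows held that motif. The STAT motif occurred in Esrrb (7.02% of windows), and the receptor motif in none of the 5 (4.08% of windows). No matches overlapped in these windows. A match is a run of letters and not a measured binding site.

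Degradation of POLE4 alone changed few or no features past the thresholds here, and none of the 10 genes. The paper, which used DESeq2, reports some genes changed after 96 h. In dPOLE4 against Ctrl cells 0 of 10 were called at T0, T12, T24, T60 and 96 h, where 0%, 0%, 0%, 0.193% and 0% of features were called in either direction. At these times edgeR gave an unadjusted p under 0.05 for 1, 2, 3, 3 and 2 genes, and DESeq2 called 0 at each. Of all features, 2069 of 17792, 1150 of 17914, 1451 of 19093, 2446 of 17116 and 2164 of 17580 had such a p. Log2 fold changes lay between -0.25 and 0.25 from T0 to T24 and between -0.053 and 0.38 at T60. The largest at T60 was that of Nanog, with 26.9, 27.7 and 21.5 CPM in dPOLE4 libraries against 20.8, 20.6 and 17.6 CPM (0.38 ± 0.11, edgeR, adjusted p = 0.0988). For the 60 h change in dPOLE4 minus that in Ctrl cells, 0 genes were called, against 0.0104% of features up. There edgeR gave an unadjusted p under 0.05 for 2 genes, beside 2518 of 19306 features, and DESeq2 made no call.

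In the MCM2-2A background, degradation of POLE4 left some of the genes higher at T60. Of the 10 genes, 2 were up-regulated in dPOLE4 MCM2-2A against Ctrl MCM2-2A cells, against 1.07% of features. Nr5a2 stood at 17.7, 16.1 and 16.4 CPM against 11.6, 9.32 and 8.85 CPM (0.76 ± 0.12, edgeR, adjusted p = 0.00265). Tfcp2l1 stood at 198, 177 and 144 CPM against 122, 110 and 102 CPM (0.63 ± 0.11, edgeR, adjusted p = 0.0047). The groups did not overlap in either gene, but both calls were lost without Ctrl MCM2-2A T60 replicate 2 or 3 or without dPOLE4 MCM2-2A T60 replicate 2, and that of Tfcp2l1 also without dPOLE4 MCM2-2A T60 replicate 1. Adjusted p (edgeR) without 1 library reached 0.0371 for Tfcp2l1 and 0.0244 for Nr5a2. Without Ctrl MCM2-2A T60 replicate 1 or dPOLE4 MCM2-2A T60 replicate 3, 4 genes were called.

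Esrrb (0.66 ± 0.14, edgeR, adjusted p = 0.0156) and Klf2 (0.76 ± 0.17, edgeR, adjusted p = 0.0195) were over the fold threshold at T60 but missed the p threshold, and DESeq2 called both. Both were called without dPOLE4 MCM2-2A T60 replicate 3 (0.80 and 0.91), and Esrrb without Ctrl MCM2-2A T60 replicate 1 (0.82). Esrrb held 89.5, 76.9 and 60.8 CPM against 57.7, 43.4 and 42.9 CPM, and Klf2 held 59.4, 44.9 and 37.6 CPM against 34.0, 27.5 and 21.8 CPM. In both genes every dPOLE4 MCM2-2A library was above every Ctrl MCM2-2A library. Over all 10 genes the median log2 fold change at T60 was 0.44, beside 0.0039 over all features.

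Earlier, 0 of 10 genes were called in this comparison at T0, T12 and T24, where 0.0715%, 0.404% and 1.02% of features were called, and 0 at 96 h, where 0.304% were. edgeR gave an unadjusted p under 0.05 for 3, 6, 7 and 3 genes at these times, and DESeq2 called 0 at each. The features with such a p were 2457 of 18171, 3179 of 18077, 3888 of 18441 and 2004 of 17421. Tfcp2l1 had an adjusted p under 0.01 at T12 (0.39 ± 0.05) and T24 (0.56 ± 0.077), and Klf4 at T24 (0.41 ± 0.067), all under the fold threshold. Tfcp2l1 passed at T24 without Ctrl MCM2-2A T24 replicate 1 or dPOLE4 MCM2-2A T24 replicate 3 (0.62 in both).

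**Figure D4:**
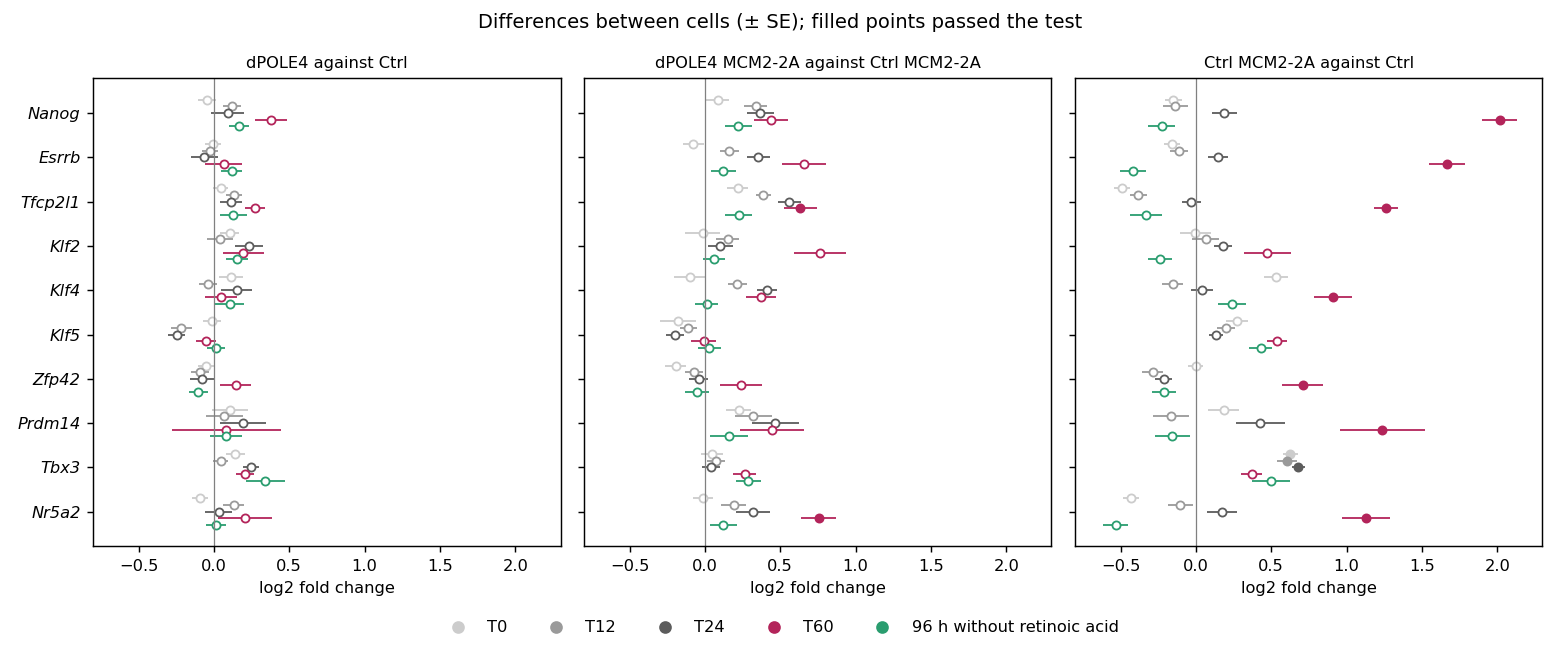
Log2 fold change (± SE) of each gene between the cells at T0, T12, T24 and T60 of retinoic acid and at 96 h without it, for dPOLE4 against Ctrl, dPOLE4 MCM2-2A against Ctrl MCM2-2A and Ctrl MCM2-2A against Ctrl cells; filled points passed the test. In the right panel Nanog (2.02), Esrrb (1.67) and Tfcp2l1 (1.26) at T60 lie far from the values at earlier times, and Tbx3 is filled at T0, T12 and T24.

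The 60 h change in dPOLE4 MCM2-2A minus that in Ctrl MCM2-2A cells was called for 1 gene, Nr5a2 (0.76 ± 0.13, edgeR, adjusted p = 0.00802), against 0.0814% of features. This call was lost in 10 of 12 fits that left out 1 library and held without Ctrl MCM2-2A T60 replicate 1 or dPOLE4 MCM2-2A T60 replicate 3. Without the former, 1 gene was called, and without the latter 2, with Esrrb (0.87). With all libraries Esrrb (0.73 ± 0.17) and Klf2 (0.77 ± 0.23) had differences of similar size and were not called.

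Whether the POLE4 effect differed between the MCM2-2A and the WT background was tested directly, and 0 of 10 genes were called at T0, T12, T24, T60 and 96 h. Of all features, 0.00526%, 0.0159%, 0.0351%, 0.1% and 0% were called. edgeR gave an unadjusted p under 0.05 for 1, 4, 3, 4 and 0 genes, and DESeq2 called 0 at each. The features with such a p were 1024 of 19007, 1399 of 18911, 1759 of 19961, 1922 of 18982 and 686 of 18555. At T60 the differences of the POLE4 effect were 0.61 ± 0.22 for Esrrb, 0.56 ± 0.21 for Nr5a2 and 0.37 ± 0.14 for Tfcp2l1, with adjusted p = 0.293, 0.326 and 0.325 (edgeR). That the effect of dPOLE4 on these genes was particular to the MCM2-2A background was therefore not shown by this test.

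The other genes of the naive state moved at T60 in part with the 10 factors. Of 8 other naive state genes, 8 were down-regulated at T60 against T0 in Ctrl cells and 6 in Ctrl MCM2-2A cells. In Ctrl MCM2-2A against Ctrl cells at T60, 6 of 8 were up-regulated, led by Tcl1 (2.63), Nr0b1 (1.93) and Pramel7 (1.83), with a median of 1.19. Of 8 core pluripotency genes, 4 were up-regulated in that comparison, led by Tdgf1 (1.81), Pou5f1 (1.70) and Fgf4 (1.65), while Sox2 stood at -0.23 and was not called. In dPOLE4 MCM2-2A against Ctrl MCM2-2A cells at T60, 2 of 8 in each list were up-regulated, Pramel6 (0.73) and Pramel7 (0.73), and Tdgf1 (0.96) and Pou5f1 (0.64). Both counts were 0 without Ctrl MCM2-2A T60 replicate 2 or 3 or dPOLE4 MCM2-2A T60 replicate 2, and the first also without dPOLE4 MCM2-2A T60 replicate 1, where the second was 1, while the first was 1 without Ctrl MCM2-2A T60 replicate 1.

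The LIF and STAT3 pathway, which feeds Klf4 and Tfcp2l1, changed early and in both directions, in medium that no longer held LIF. At T12 in Ctrl cells 4 of its 8 genes were down-regulated, led by Socs3, the feedback inhibitor of the pathway (-2.20), Stat3 (-1.36) and Lifr, the LIF receptor (-1.09), and 1, Pim1 (1.11), was up-regulated. In Ctrl MCM2-2A against Ctrl cells at T60, Lifr (0.72) was up-regulated and Socs3 (-0.93) was down-regulated, and the other 6 were not called.

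Markers of other cell types moved between the clones at T60 as well. In Ctrl MCM2-2A against Ctrl cells 4 of 6 extraembryonic endoderm markers were up-regulated, and the summed level of the list was 528 to 586 CPM against 293 to 365 CPM. Of 5 neural progenitor markers tested, 4 were down-regulated, against 7.93% of features (sums of 236 to 266 against 372 to 400 CPM). Of 5 fibroblast markers tested, 4 were down-regulated and 1 up-regulated (sums of 168 to 183 against 365 to 513 CPM). Of 5 trophoblast markers tested, 2 went up and 2 down (sums of 198 to 230 against 129 to 155 CPM). No marker of these lists was at 0 in all libraries of Ctrl or Ctrl MCM2-2A cells at T60, and their part in the levels of the 10 genes was not tested. In dPOLE4 MCM2-2A cells at T60 the sums were 413 to 459 CPM for endoderm, 175 to 190 CPM for neural, 68.6 to 84.9 CPM for fibroblast and 241 to 319 CPM for trophoblast markers, and Lum was at 0 there. Of the other lists, 3 formative genes of 8 were up-regulated and 5 down-regulated at T60 against T0 in Ctrl cells, where 26.9% and 23.7% of features were, and the 7 tested 2-cell-like features were up-regulated.

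The genes near each of the 10 on its chromosome were examined in Ctrl MCM2-2A against Ctrl cells at T0. The median log2 fold change of the tested genes within 5 Mb lay between -0.21 and 0.21 for all 10. Within 2 Mb the medians furthest from zero among the 10 were those of Prdm14 (-0.534, 10 neighbours) and Nr5a2 (0.4, 31 neighbours). Klf5 stood at 0.27 beside -0.039 over 15 neighbours within 5 Mb and 0.234 over the tested genes of chromosome 14. Tbx3, at chr5:119670669-119684724 (+) in the GENCODE annotation of mm10, stood at 0.63 beside a median of 0.12 over 189 neighbours. Tfcp2l1, at chr1:118627945-118685168 (+), stood at -0.49 beside 0.017 over 24 neighbours. Klf4, at chr4:55527143-55532466 (-), stood at 0.53 beside -0.21 over 40 neighbours.

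Across the 16 group means of the RA experiment, 8 of the 10 genes followed the mean of the other members closely, with Pearson's r between 0.936 and 0.989. Klf5 had r = 0.734 and Tbx3 r = 0.0261. These points share libraries and scaling, and the values are descriptions. Among 21320 other features, the genes most like the mean profile of the 10 were Itpka (r = 0.985), Ccnd1 (0.985), Zscan10 (0.985), Tcl1 (0.983) and Tubb4b (0.982). Zscan10, a zinc finger gene expressed in mESCs, went from 153 CPM in Ctrl cells at T0 to 16.1 CPM at T60, and stood at 36.9 CPM in Ctrl MCM2-2A and 37.7 CPM in dPOLE4 MCM2-2A cells at T60.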

How the data were processed

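Strand-specific, rRNA-depleted RNA libraries were used. The authors trimmed reads with cutadapt 4.2, aligned them with STAR to mm10 and counted them with TEcount on GENCODE genes and repeat subfamilies, and the deposited values are these raw counts, neither normalized nor pooled. The members and the gene lists were chosen with earlier results of these data known. Group and replicate were taken from the labels.

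Low features were removed within each comparison by filterByExpr (count 10, total 15). TMM factors came from genes and repeats together, and tests used edgeR 4.0.16 (quasi-likelihood, Benjamini-Hochberg adjustment over all tested features) in R 4.3.3. The study's methods used DESeq2, which was an alternative here (1.42.0). Differences of differences were fitted with all 4 groups. All 10 genes passed the filter in every comparison. The genes named are the 10 members, up to 3 called genes with the largest change per list, and the 5 features most like the mean profile. Sox2 was named after its value was seen. Alternatives were other scalings and filters, a replicate block, all groups in one fit, no fold threshold and leaving out each library. The fit of pairs of groups was tested on simulated data, with an outcome not given here. That of differences of differences was not tested in this way. Replicate numbers were taken to pair libraries where every same-number correlation of deviations was over 0.1, which held in 6 of 31 comparisons.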

Additional observations from a re-analysis of the deposited data

Results flagged for a closer look

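Tested differences between cells. The 60 h change in Ctrl MCM2-2A minus that in Ctrl cells was 2.14 for Nanog, 1.80 for Esrrb, 1.73 for Tfcp2l1, 1.54 for Nr5a2 and 0.68 for Zfp42 (log2), so these genes lost less in the MCM2-2A clone. The 60 h change in dPOLE4 MCM2-2A minus that in Ctrl MCM2-2A cells was 0.76 for Nr5a2.

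In another 7 cases a gene had opposite signs in a pair of comparisons, with no overlap between the libraries compared in either. The differences between such comparisons were not tested. They were found by screening the members over many pairs of comparisons. The share of all features with such a pattern was not counted. Tfcp2l1 stood lower in Ctrl MCM2-2A than in Ctrl cells at T12 (-0.38) and higher at T60 (1.26), a difference of 1.65. Zfp42 stood lower at T12 (-0.29) and T24 (-0.21) and higher at T60 (0.71), differences of 1.00 and 0.92. Prdm14 stood lower at T12 (-0.16) and higher at T24 (0.43) and T60 (1.24), differences of 0.59 and 1.4. Its T12 and T24 values were not called, with lowest adjusted p of 0.305 and 0.0185 over all fits (edgeR or DESeq2). Klf5 stood lower at T60 than at T24 in Ctrl cells (-0.16) and higher in Ctrl MCM2-2A cells (0.25), a difference of 0.41. Nr5a2 stood lower in dPOLE4 than in Ctrl cells at T0 (-0.093) and higher at T12 (0.13), a difference of 0.22, with both values near the spread of the libraries.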

How the results depend on the processing

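Each number of called genes was recomputed under every alternative. The share of all features called under each alternative is not given here. Without the fold threshold, the number of called genes was 8 in dPOLE4, 7 in Ctrl MCM2-2A and 4 in dPOLE4 MCM2-2A cells for T24 against T12, and 1 and 2 at T12 and T24 for dPOLE4 MCM2-2A against Ctrl MCM2-2A. It was 4, 3, 2 and 4 at T0, T12, T24 and 96 h for Ctrl MCM2-2A against Ctrl cells. For dPOLE4 MCM2-2A against Ctrl MCM2-2A at T60, 4 genes were called with DESeq2, without a low count filter, with all groups in one fit and with the replicate block. For the 60 h change in dPOLE4 MCM2-2A minus that in Ctrl MCM2-2A, 2 were called with DESeq2 and with all groups in one fit, and 3 without the filter and with the replicate block. Same-number libraries did not pair in the first of these comparisons. The second had no check of its own, and its groups paired at T0 but not at T60. The block moved the number of called genes among the 10 by over 1.5 times in no other comparison, and 32 of 390 counts over the gene lists. For the POLE4 effect in MCM2-2A minus that in WT at T60, 1 gene (Esrrb) was called without the filter. Leaving out 1 library gave 1 to 3 genes for dPOLE4 MCM2-2A T24 against T12, 0 to 1 at T24 and 0 to 4 at T60 for dPOLE4 MCM2-2A against Ctrl MCM2-2A, and 0 to 2 for the 60 h change of that pair. It gave 1 to 2 at T0, 0 to 1 at T12 and 0 to 1 at 96 h for Ctrl MCM2-2A against Ctrl. The causes were not tested. Of the recomputed numbers of called genes among the 10, 549 stayed within 1.5 times and 45 did not. Of the counts over the gene lists, 5509 did and 431 did not. Of the percentages left at T60, 340 moved by less than the SD of the libraries and 20 by more. Without TMM, 13 moved by more than the SD, all upward, and 27 by less. The percentage of Tfcp2l1 was then 12.8%, 14.8% and 43.8% in Ctrl, dPOLE4 and Ctrl MCM2-2A cells. That of Klf5 in Ctrl cells was then 40.2%, and that of Tbx3 in Ctrl MCM2-2A cells 100.8%. Of the recomputed log2 fold changes of single genes named here, none changed sign, 2322 kept their side of the thresholds, 31 lost a call and 57 gained one. Counts limit Prdm14 most, with as few as 12 per library.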
